A study of Mus musculus with 6 samples.

Results

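The vascular calcification genes described here are 9 genes that promote or restrain the deposition of mineral in the arterial wall, out of 55487 genes counted in mouse aorta. They were chosen by name as the osteogenic transcription factors Runx2, Sp7, Msx1 and Msx2, the phosphatase Alpl and the cytokine Tnfsf11 on the promoting side, and Mgp, Enpp1 and Tnfrsf11b on the inhibiting side. Aortas came from 3 Prdm16 iSM KO mice (Myh11-CreERT2+; Prdm16 F/F) and 3 control mice (Myh11-CreERT2+; Prdm16 W/W), all male and kept on a C57BL/6 background. Both groups carried the Cre transgene and received tamoxifen from 8 weeks of age, at 1 mg per day in 10 injections, then had 2 weeks of washout and were kept for 60 further days without other treatment. In iSM KO mice this removes exon 9 of Prdm16. The Cre transgene lies on the Y chromosome and acts in cells that express Myh11, so only males could be used, and endothelial cells, fibroblasts and blood cells of the aorta were not targeted. The adventitial layer was removed before RNA extraction, and ribosomal RNA was depleted before sequencing. The comparison asks whether loss of Prdm16 from smooth muscle changed the transcripts of this gene set in aortas that had not been injured.

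Arterial calcification shares much of its machinery with bone formation. Smooth muscle cells can take up an osteoblast-like programme led by RUNX2 and SP7, with MSX1 and MSX2 as homeodomain factors downstream of BMP signals. Pyrophosphate blocks the growth of hydroxyapatite crystals. ENPP1 makes it from ATP outside the cell, the transporter encoded by Ank delivers it or its precursor to the outside, and ALPL hydrolyses it. MGP, a small matrix protein carboxylated with the help of vitamin K, is a strong local inhibitor, and mice without it calcify their arteries. TNFRSF11B, or osteoprotegerin, is a soluble decoy that binds TNFSF11, known as RANKL, and keeps it from its receptor RANK.

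The libraries held 24911609 to 40460467 counts, with control 3 the smallest, so that 1 read corresponded to between 0.0245 and 0.0419 CPM. CPM, the unit used throughout, divides each count by the TMM-scaled size of the library. Of the 9 genes, 8 were among the 16565 genes tested, which needed more than 10 counts in every library of either group. Tnfsf11 was not. Prdm16 was at 183, 223 and 179 CPM in controls 1 to 3 and at 93.8, 113 and 79.8 CPM in iSM KO aortas 1 to 3, a log2 fold change of -1.03 (SE 0.14, edgeR FDR = 0.00265). Reads from exons other than the excised one still count towards this total. The 6 smooth muscle markers Myh11, Acta2, Tagln, Cnn1, Smtn and Lmod1 summed to between 22176 and 27151 CPM in controls and to between 23714 and 26086 CPM in iSM KO aortas. In whole aortic RNA, fewer cells of a type and less RNA per cell cannot be told apart.

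Only 1 of the 8 tested calcification genes, the inhibitor Tnfrsf11b, passed an FDR of 0.05 in edgeR's quasi-likelihood test, and it was higher in iSM KO aortas. Of all genes tested, 7.56% passed this FDR, 4.26% with a higher and 3.30% with a lower level in iSM KO. With a fold change over 2 required as well, 0 of the 8 genes passed in edgeR, against 2.78% of all genes, and 0 passed in DESeq2 or limma-voom. An unadjusted p under 0.05 was reached by 3 of the 8 genes, Tnfrsf11b, Msx1 and Sp7, against 22.1% of all genes. The same 3 genes had groups that did not overlap in CPM, which 27.9% of all genes also had. The median log2 fold change of the 8 genes was 0.27, and that of all tested genes was -0.014.

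**Figure D1:**
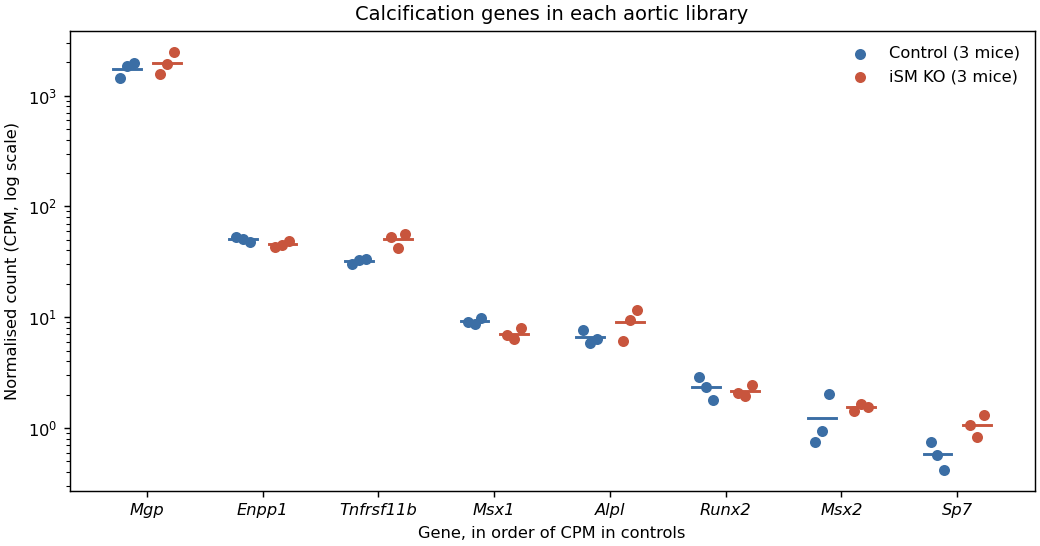
Normalised counts (CPM, log scale) of the 8 tested calcification genes, with a point for each of 3 control and 3 iSM KO aortas and a bar at each group mean. Tnfrsf11b, at 29.97 to 33.6 CPM in controls against 42.5 to 56.7 CPM in iSM KO, is the gene whose groups are apart and that passed the FDR. Msx1 and Sp7 also do not overlap but did not pass it. Tnfsf11 had 1 read in all and is not drawn.

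Tnfrsf11b (ENSMUSG00000063727) is a gene of chromosome 15 (GRCm38, 54250619 to 54278484, minus strand). Its counts were 1004, 1251 and 801 in controls and 2176, 1484 and 2070 in iSM KO aortas. Scaled, these were 29.97, 32.6 and 33.6 CPM in controls 1 to 3 and 53.4, 42.5 and 56.7 CPM in iSM KO 1 to 3. Controls lay close together, with a coefficient of variation of 5.81%, and every iSM KO aorta was above every control. The group means were 32.0 ± 1.86 and 50.9 ± 7.40 CPM (SD, n = 3 each). The log2 fold change was 0.67 (SE 0.11, 95% interval 0.41 to 0.92, edgeR FDR = 0.00827), which is 1.59-fold, with an interval from 1.33 to 1.89. Without any single library it stayed between 0.58 and 0.78, with an edgeR FDR of at most 0.0380, and it passed the FDR in all 12 alternative fits. Across them the FDR ran from 1.01e-05 to 0.0380.

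The ligand that osteoprotegerin binds was at the limit of detection. Tnfsf11 (chromosome 14, 78277445 to 78308043, minus strand) had 0, 1 and 0 reads in controls and 0, 0 and 0 in iSM KO aortas. A count of 0 allows up to 3 reads per library, which is 0.0736 to 0.126 CPM at these depths. Both groups lie under that limit, so no fold change was computed, and no ratio of Tnfsf11 to Tnfrsf11b could be given. Markers of T cells, a known source of RANKL, were also near 0, with 5 genes summing to at most 1.05 CPM in any library and Cd3e at 0 in control 1 and iSM KO 3.

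The other RANK genes included the receptor itself. Of 10 genes of the list of RANK signalling, 0 passed the FDR in edgeR, 0 in limma-voom and 1 in DESeq2. An unadjusted p under 0.05 in edgeR was reached by 4 of the 10, against 22.1% of all genes tested. The median log2 fold change of the 10 genes was 0.215. Tnfrsf11a, which encodes RANK, was at 50.9, 51.9 and 39.9 CPM in controls against 70.3, 70.4 and 54.5 CPM in iSM KO aortas. Its groups did not overlap, but its log2 fold change of 0.45 (95% interval 0.16 to 0.75) did not pass the threshold (edgeR FDR = 0.0745) and did so in 4 of 12 alternative fits. Tnfsf10, which encodes TRAIL, the other known ligand of osteoprotegerin, was at 9.28, 10.3 and 4.78 CPM in controls against 1.96, 3.90 and 6.68 CPM in iSM KO. These groups overlapped (log2 fold change -0.98, edgeR FDR = 0.206). Within both groups Tnfsf10 had the order of the summed CPM of 6 endothelial markers. That sum was 828, 988 and 473 in controls 1 to 3 and 247, 446 and 749 in iSM KO 1 to 3. The part of endothelial cells in the values of Tnfsf10 was not tested. Tnfrsf1a, a TNF receptor and the gene of the list with the highest mean CPM in controls, was at 61.8 ± 6.94 and 65.7 ± 2.34 CPM (SD, n = 3 each; edgeR FDR = 0.620).

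Transcripts that mark osteoclasts, the cells in which RANK signalling is best known, were at or near 0 for most of the list. Dcstamp, Ocstamp, Oscar and Calcr had at most 0.149 CPM in every library. The 7 osteoclast markers summed to 6.69 to 9.77 CPM in controls against 5.76 to 6.87 CPM in iSM KO, of which Ctsk made up the greater part. Of the 2 that could be tested, 0 passed the FDR in edgeR or limma-voom and 1 did in DESeq2. An unadjusted p under 0.05 in edgeR was reached by 1, against 22.1% of all genes tested.

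Mgp was by far the most abundant of the 9 genes. It lies on chromosome 6, from 136872435 to 136875823 on the minus strand. Per kb of exon it ranked 21st of 16534 tested genes with an annotated length, at 1477 CPM per kb in controls and 1669 CPM per kb in iSM KO aortas. Its counts of 47179 to 90079 reads per library make counting error small. The normalised count was 1434, 1847 and 1978 CPM in controls against 1558, 1920 and 2466 CPM in iSM KO, and the groups overlapped. The log2 fold change was 0.18 (SE 0.18, 95% interval -0.23 to 0.59, edgeR FDR = 0.612), so a change by a factor from 0.85 to 1.5 lies within the interval. Without iSM KO replicate 3, the highest library, the log2 fold change was -0.02.

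The enzymes that the Gla proteins depend on were measured beside Mgp. Of 11 genes of the list of vitamin K and Gla proteins, 7 could be tested. The FDR was passed by 3, 2 higher and 1 lower in iSM KO, against 7.56% of all genes tested. Ggcx, the carboxylase, was at 57.1 ± 9.55 CPM in controls against 54.2 ± 2.24 CPM in iSM KO (SD, n = 3 each; edgeR FDR = 0.755). Vkorc1, which recycles vitamin K, was at 29.3 ± 6.52 and 23.3 ± 1.27 CPM (SD, n = 3 each; edgeR FDR = 0.231).

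Gas6, a Gla protein that signals through the receptor AXL, and Axl moved in opposite directions. Gas6 was at 368, 320 and 306 CPM in controls and fell to 215, 236 and 260 CPM in iSM KO aortas (log2 fold change -0.48, SE 0.10, edgeR FDR = 0.0250), though it passed the FDR in only 3 of the 6 fits without a library, losing it without control replicate 1 (FDR = 0.0706) and without iSM KO replicate 1 or 2 (FDR = 0.109 and 0.114). Axl rose from 480, 447 and 459 CPM to 605, 639 and 641 CPM (log2 fold change 0.44, SE 0.08, edgeR FDR = 0.0123) and passed in 5 of these 6 fits, the exception being that without iSM KO replicate 2 (FDR = 0.0868). Osteocalcin, encoded by Bglap, had 0 to 4 reads per library, and Bglap2, Bglap3 and Ucma also failed the filter.

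MGP is also a product of cartilage, and 3 transcripts of cartilage matrix fell in the same aortas, while others were near 0 or unchanged. Of 6 chondrocyte markers, 4 could be tested and 3 passed the FDR, all lower in iSM KO, against 7.56% of all genes tested. Acan, which encodes aggrecan, was at 73.0, 83.1 and 83.7 CPM in controls against 29.4, 35.2 and 36.5 CPM in iSM KO, a log2 fold change of -1.25 (edgeR FDR = 2.06e-04). Hapln1, the link protein of aggrecan, and Comp fell by 3.12 and 1.47 on the log2 scale. Col2a1, the defining collagen of cartilage, was under 3 CPM in every library (edgeR FDR = 0.998). Col9a1 had at most 0.301 CPM in a library and Cnmd 1 read in all, and neither could be tested. The summed CPM of the 6 markers was 100.6 to 117 in controls and 40.7 to 47.6 in iSM KO. The part of cartilage cells in the values of Mgp was not tested.

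Enpp1 and Alpl set the supply and removal of pyrophosphate, and neither passed the FDR. Enpp1 (chromosome 10, 24637914 to 24712159, minus strand) was at 53.2, 50.4 and 47.8 CPM in controls against 43.4, 44.8 and 48.7 CPM in iSM KO aortas. The groups overlapped by a single library each. The log2 fold change was -0.15 (SE 0.08, 95% interval -0.33 to 0.03, edgeR FDR = 0.319), the narrowest interval among the 8 genes. Stretches of 111 to 146 bp of its 10257 bp of exon match 12 other genes at 95% identity or more, which leaves a small part of its count uncertain.

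Alpl (chromosome 4, 137741733 to 137796384, minus strand, 16.5 Mb from Prdm16) was at 7.61, 5.91 and 6.42 CPM in controls against 6.09, 9.51 and 11.6 CPM in iSM KO. The iSM KO 2 and 3 aortas were above all controls, while iSM KO 1 lay within their range. The log2 fold change was 0.45 (SE 0.22, 95% interval -0.06 to 0.96, edgeR FDR = 0.281). It moved with single libraries, to 0.67 without iSM KO replicate 1 and to 0.22 without iSM KO replicate 3. In the 3 iSM KO aortas the CPM of Alpl and that of Mgp had the order of the summed CPM of 6 endothelial markers, which was 247, 446 and 749 in iSM KO 1 to 3. This order was not particular to endothelial markers. The sums of adventitial fibroblast markers (70.3, 77.7 and 106 CPM), macrophage markers (7.12, 7.28 and 23.1 CPM) and chondrocyte markers (40.7, 41.1 and 47.6 CPM) also had it. Those of the other marker lists did not. The endothelial sum was 828, 988 and 473 CPM in controls 1 to 3, where neither gene had its order, and Mgp was highest in control 3, the library with the lowest sum. In controls 1 to 3 the fibroblast sum (209, 98.8 and 140 CPM) did have the order of Alpl. The chondrocyte sum (100.6, 110 and 117 CPM) had that of Mgp. In controls but not in iSM KO aortas, the osteoblast sum also had the order of Alpl, and the osteoclast, neutrophil and T cell sums that of Mgp. Between the groups, the median log2 fold change was -0.601 for endothelial, -0.926 for fibroblast and -1.356 for chondrocyte markers, while the estimates for Alpl and Mgp were positive. Alpl is expressed by endothelial cells in several tissues, and the part of these cells, of fibroblasts or of other cells in its values was not tested. Of the 6 endothelial markers 0 passed the FDR in edgeR, DESeq2 or limma-voom, and 0 had an unadjusted p under 0.05 in edgeR. The 5 neutrophil markers summed to at most 0.210 CPM, with Ly6g at 0 in all libraries.

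The ratio of both enzymes within a library does not depend on how libraries are scaled. The count of Alpl was 14.3%, 11.7% and 13.4% of that of Enpp1 in controls 1 to 3, and 14.0%, 21.2% and 23.9% in iSM KO 1 to 3. On the log2 scale the ratio was -2.93 ± 0.15 in controls and -2.38 ± 0.40 in iSM KO (SD, n = 3 each), a difference of 0.55. The groups overlapped because iSM KO 1 lay within the range of the controls. No p is given, since the smallest that an exact permutation test allows here, 3 mice against 3, is 0.1.

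**Figure D2:**
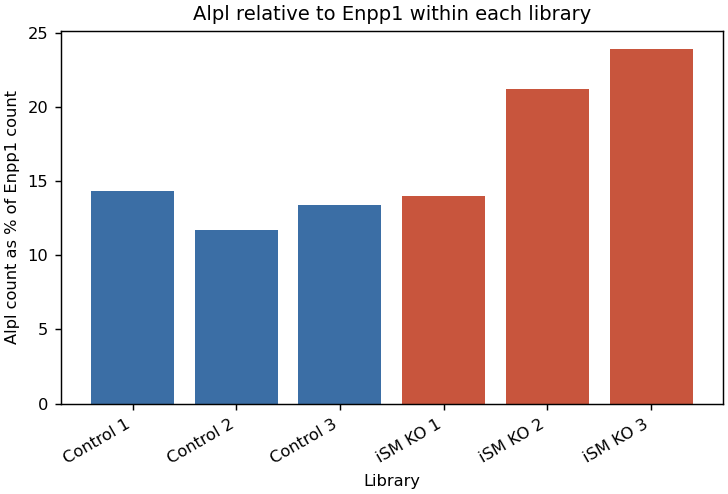
Count of Alpl as a percentage of the count of Enpp1 in each of the 6 libraries, with controls in blue and iSM KO in red. The controls and iSM KO 1 lie between 11.7% and 14.3%, and iSM KO 2 and 3 at 21.2% and 23.9%.

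Other genes of pyrophosphate and phosphate handling were examined as a list. Of its 10 genes, 9 could be tested, and 2 passed the FDR, both higher in iSM KO, against 7.56% of all genes tested. The median log2 fold change was 0.26. Ank, the pyrophosphate exporter, was at 111, 106 and 114 CPM in controls and rose to 177, 168 and 194 CPM in iSM KO aortas. Every iSM KO aorta was above every control, with a log2 fold change of 0.70 (SE 0.08, 95% interval 0.52 to 0.89, edgeR FDR = 0.00135), and Ank passed the FDR in all 12 alternative fits. Slc29a1, a nucleoside transporter that takes up adenosine, rose from 107 ± 7.99 to 141 ± 11.2 CPM (SD, n = 3 each; log2 fold change 0.39, edgeR FDR = 0.0324), but passed in 1 of 6 fits that left out a library.

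Further enzymes and transporters of that list did not pass the FDR. Nt5e, which produces adenosine and whose loss in humans causes arterial calcification, was at 10.36, 10.43 and 5.16 CPM in controls against 3.803, 5.27 and 10.02 CPM in iSM KO, and the groups overlapped in part (edgeR FDR = 0.504). Within both groups Nt5e had the order of the summed endothelial markers given above, and the part of endothelial cells in its values was not tested. Entpd1, an ATP-degrading ectoenzyme, was at 225 ± 8.95 and 201 ± 16.1 CPM (SD, n = 3 each; edgeR FDR = 0.297). The phosphate importers Slc20a1 and Slc20a2 stood at 0.18 and 0.14 on the log2 scale (edgeR FDR = 0.378 and 0.320). Abcc6, which supplies ATP for pyrophosphate mainly from the liver, was at no more than 0.156 CPM.

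Among the osteogenic transcription factors, Runx2, Sp7 and Msx2 were at low levels and Msx1 was higher. The FDR was passed by 0 of 4 in edgeR, DESeq2 or limma-voom. An unadjusted p under 0.05 in edgeR was reached by 2 of 4, against 22.1% of all genes tested. Runx2 (chromosome 17, 44495987 to 44814797, minus strand) was at 2.90, 2.34 and 1.80 CPM in controls against 2.09, 1.95 and 2.44 CPM in iSM KO. The iSM KO values lay inside the range of the controls. The log2 fold change was -0.13 (SE 0.23, 95% interval -0.65 to 0.40, edgeR FDR = 0.784), and it was 0.05 without control replicate 1. The deposited counts of Runx2 are not whole in 4 libraries. In each of the 6 libraries they add up to a whole number, within 0.001, with those of the antisense gene Runx2os1, which shares 519 bp of exon with it. Runx2os1 held 0 to 5.97 counts and the sum 1.95 to 2.90 CPM.

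RUNX2 is known to bind a core motif, TGTGGT, and to act on its own promoter. In RefSeq promoter windows (GRCm38.p6, 250 bases before to 50 after the start), found for 6 of the 9 genes, 2 of 7 windows held the motif on either strand, against 16.8% of 32851 windows of that length. They are shown, with the motif in capitals as its reverse complement ACCACA, to mark which of the pyrophosphate and osteogenic genes carry these letters near the start. Both stretches lie before the start that the RefSeq windows use, on the strand of the gene, at chr17:44814690-44814719 for Runx2 and chr10:24712286-24712315 for Enpp1:
Runx2: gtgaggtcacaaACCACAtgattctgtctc
Enpp1: cactctttgcagACCACAcagcgattccag
The window of Runx2 held 2 further matches at or after the RefSeq start. By the gene position given above, 44495987 to 44814797 on the minus strand, the stretch shown for Runx2 lies inside the gene. Neither gene passed the FDR, and a match of letters does not show binding.

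Sp7, which encodes osterix and acts after Runx2 in osteoblasts, was the lowest of the factors in controls. It had 25, 22 and 10 reads in controls and 43, 29 and 48 in iSM KO aortas, or 0.746, 0.572 and 0.419 CPM against 1.06, 0.831 and 1.31 CPM. The groups did not overlap, but the counts are small. The log2 fold change was 0.86 (SE 0.33, 95% interval 0.12 to 1.6, edgeR FDR = 0.165), and the FDR ran from 0.156 to 0.349 over 12 alternative fits. It lies on chromosome 15, from 102356606 to 102367182 on the minus strand.

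Msx1 and Msx2 differed in level and in spread. Msx1 (chromosome 5, 37820485 to 37824583, minus strand) was at 9.02, 8.72 and 9.77 CPM in controls against 6.89, 6.33 and 7.97 CPM in iSM KO. All controls were above all iSM KO aortas, with a log2 fold change of -0.37 (SE 0.13, 95% interval -0.66 to -0.08), which did not pass the FDR (edgeR FDR = 0.126, from 0.0960 to 0.377 over 12 alternatives). Msx2 (chromosome 13, 53466884 to 53473074, minus strand) was at 0.746, 0.937 and 2.01 CPM in controls against 1.42, 1.66 and 1.56 CPM in iSM KO. Control 3 was above every iSM KO aorta and the other controls below them, and the coefficient of variation was 55.4% in controls and 7.74% in iSM KO. Its log2 fold change was 0.36 (95% interval -0.47 to 1.19, edgeR FDR = 0.603) and 0.87 without control replicate 3 (FDR = 0.141).

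**Figure D3:**
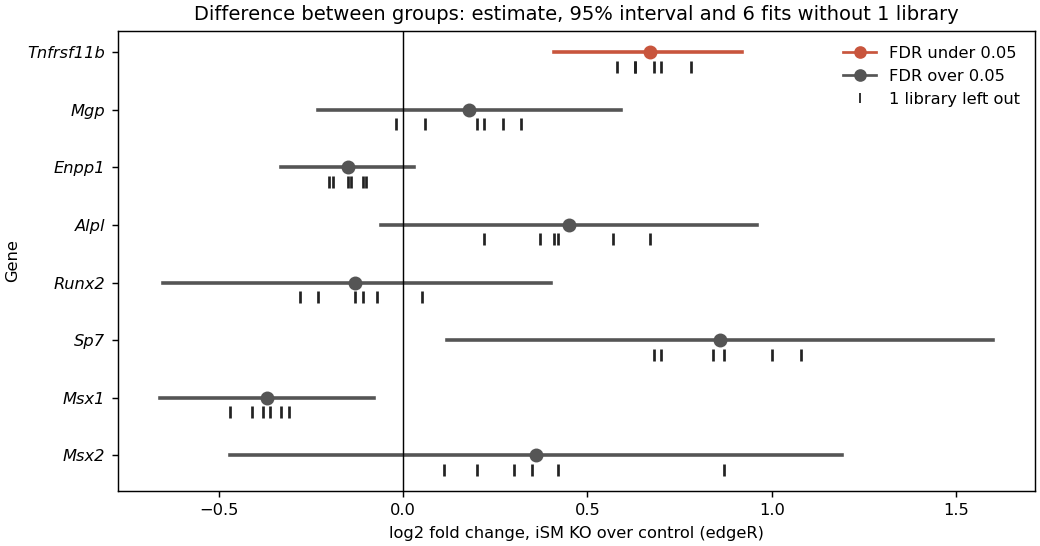
Log2 fold change of iSM KO over control for the 8 tested genes, with its 95% interval from edgeR (horizontal line) and the values of 6 fits that each left out 1 library (ticks). Tnfrsf11b, in red, passed an FDR of 0.05 and its ticks lie between 0.58 and 0.78. The intervals of Msx1 and Sp7 leave out 0, but neither passed the FDR.

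Compared per kb of exon, the 9 genes kept much the same order in both groups. In controls the order was Mgp, Tnfrsf11b (11.4 CPM per kb), Enpp1 (4.92), Msx1 (2.96), Alpl (1.65), Msx2 (0.376), Runx2 (0.266), Sp7 (0.170) and Tnfsf11, each value in CPM per kb. The neighbours Msx2 and Runx2, and Runx2 and Sp7, overlapped between libraries, and the others did not. In iSM KO aortas Tnfrsf11b was at 18.05 CPM per kb, Msx1 and Alpl overlapped at 2.28 and 2.25 CPM per kb, and Sp7 and Runx2 overlapped at 0.314 and 0.244 CPM per kb.

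The partners and regulators of the osteogenic factors were tested as a list of 12 genes. Of 11 tested, 2 passed the FDR, both higher in iSM KO, against 7.56% of all genes tested. The median log2 fold change was -0.16. Zbtb16, a zinc finger factor that can act ahead of Runx2 in osteogenic cells, rose from 124 ± 10.4 to 170 ± 23.5 CPM (SD, n = 3 each; log2 fold change 0.45, edgeR FDR = 0.0419), but passed in 0 of 6 fits without a library. Hdac5, a deacetylase that represses RUNX2, rose from 124 ± 8.70 to 163 ± 11.2 CPM (SD, n = 3 each; log2 fold change 0.39, edgeR FDR = 0.0284) and passed in 1 of these 6 fits. Cbfb, the partner that RUNX2 needs to bind DNA, and Dlx5 stood at -0.16 and 0.26 on the log2 scale (edgeR FDR = 0.429 and 0.471). Twist1, a repressor of RUNX2, was at 11.9 ± 0.874 and 9.07 ± 0.879 CPM (SD, n = 3 each; edgeR FDR = 0.0806).

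Bone matrix and osteocyte products included both the greatest rise and the greatest fall among the tested genes of the 6 lists. Of 12 genes, 9 could be tested and 4 passed the FDR, against 7.56% of all genes tested. Of these 4, 2 were higher and 2 lower in iSM KO, and the median log2 fold change of the 9 was -0.25. Phex, an endopeptidase of osteoblasts and osteocytes that protects mineralization, was at 11.0, 8.54 and 9.73 CPM in controls and rose to 23.1, 24.1 and 25.5 CPM in iSM KO aortas. The groups were far apart, with a log2 fold change of 1.32 (SE 0.11, 95% interval 1.06 to 1.57, edgeR FDR = 2.86e-04), and Phex passed the FDR in all 12 alternatives. Ibsp, which encodes bone sialoprotein, a nucleator of mineral, had 44, 36 and 36 reads in controls and 9, 7 and 1 in iSM KO. It fell from 1.25 ± 0.291 to 0.150 ± 0.106 CPM (SD, n = 3 each), a log2 fold change of -3.01 (SE 0.51, edgeR FDR = 0.00863), and also passed in all 12 alternatives.

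Omd and Fam20c passed less firmly. Omd, a leucine-rich proteoglycan of bone, was at 8.30, 2.37 and 3.65 CPM in controls against 1.55, 0.946 and 1.53 CPM in iSM KO (log2 fold change -1.82, edgeR FDR = 0.0404). Without control replicate 1, its highest library, the log2 fold change was -1.14 (FDR = 0.0848), and it passed in 1 of 6 fits without a library. In controls, but not in iSM KO aortas, its values had the order of the adventitial fibroblast markers, 6 genes that summed to 209, 98.8 and 140 CPM in controls 1 to 3 and to 70.3, 77.7 and 106 CPM in iSM KO 1 to 3. The sum of 6 osteoblast markers (2.78, 2.11 and 2.18 CPM in controls 1 to 3) had this order too, again not in iSM KO aortas. All 6 fibroblast markers had a negative log2 fold change, with a median of -0.926. All had an unadjusted p under 0.05 in edgeR, against 22.1% of all genes tested. The FDR was passed by 2 of the fibroblast markers in edgeR, both lower, by 3 in DESeq2 and by 0 in limma-voom. The part of fibroblasts or osteoblasts in the values of Omd was not tested. Fam20c, a kinase of secreted mineralization proteins, rose from 42.3 ± 3.63 to 53.7 ± 1.26 CPM (SD, n = 3 each; log2 fold change 0.34, edgeR FDR = 0.0391) and passed in 2 of 6 fits without a library.

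The remaining bone products did not pass. Col1a1 and Col1a2, which encode the chains of type I collagen, stood at -0.50 and -0.36 on the log2 scale (edgeR FDR = 0.0532 and 0.0695), and each passed in 3 of 12 alternatives. Sost, which encodes the Wnt inhibitor sclerostin and is expressed in aortic smooth muscle as well as in osteocytes, was at 632, 926 and 776 CPM in controls against 779, 665 and 518 CPM in iSM KO (edgeR FDR = 0.438). Spp1, or osteopontin, was at 2.61 ± 0.756 and 4.28 ± 2.27 CPM (SD, n = 3 each; edgeR FDR = 0.302). Dmp1 had at most 0.0821 CPM in a library, and Mepe and Dspp had 0 reads in all 6. Of 6 osteoblast markers, only Sp7, Ibsp and Ifitm5 had enough reads to be tested. The FDR was passed by 1 (Ibsp, lower), against 7.56% of all genes tested, and the list summed to 1.55 to 2.78 CPM over all libraries.

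Receptors for mineral hormones formed the last list. Of 11 genes 6 could be tested, and 1 passed the FDR, against 7.56% of all genes tested. Fgfr1, a receptor for FGF23 together with its co-receptor klotho, was at 245, 268 and 259 CPM in controls and rose to 395, 386 and 401 CPM in iSM KO aortas, a log2 fold change of 0.62 (SE 0.08, edgeR FDR = 0.00201) that passed in all 12 alternatives. The co-receptor gene Kl had at most 0.548 CPM, and Fgf23, Casr and Cyp24a1 had 0 reads. Pth1r, the receptor of parathyroid hormone, was at 17.5 ± 0.452 and 17.4 ± 0.961 CPM (SD, n = 3 each; edgeR FDR = 0.965).

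**Figure D4:**
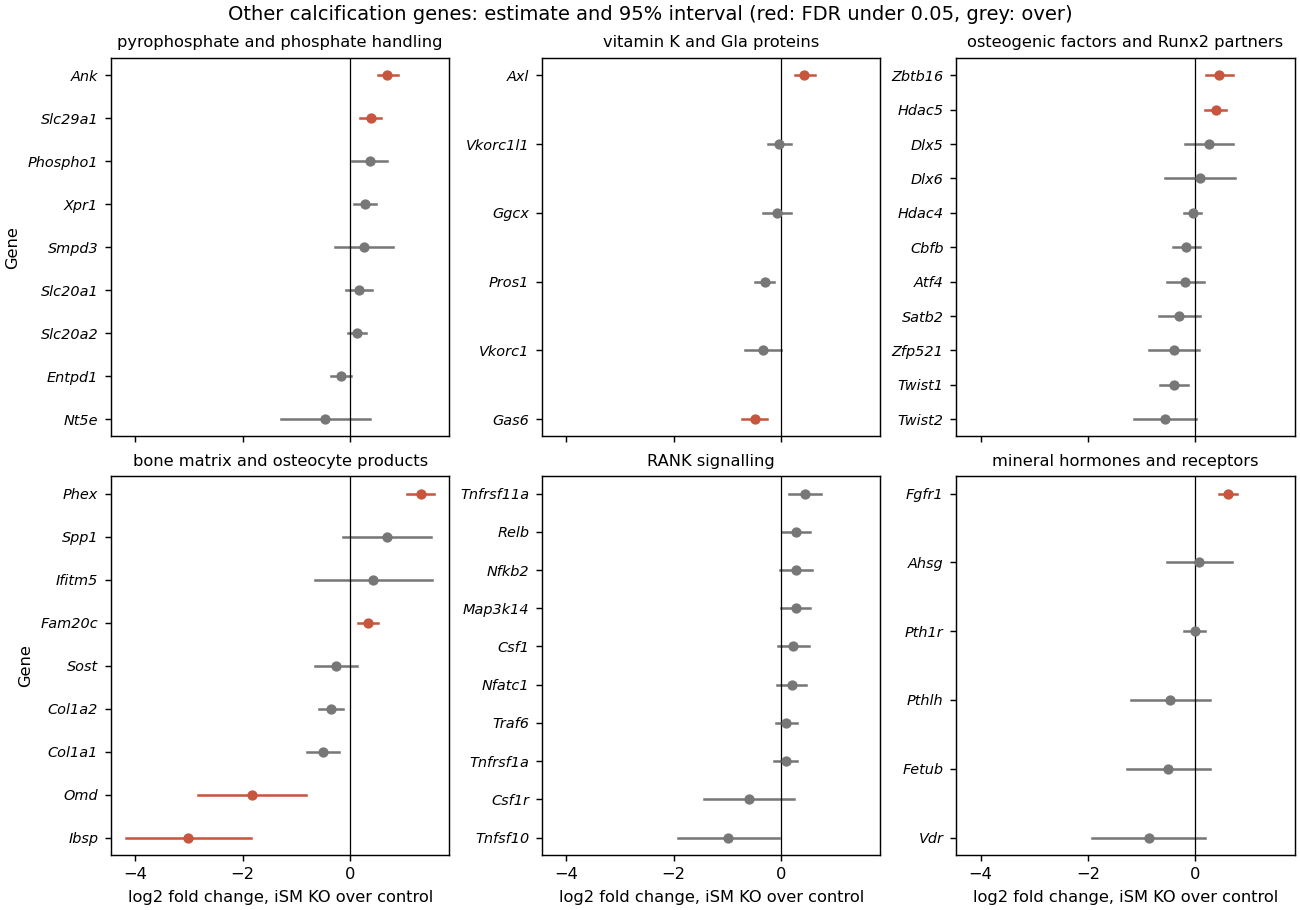
Log2 fold change and 95% interval (edgeR) of 51 tested genes of 6 lists of other calcification genes, in red where the FDR was under 0.05. Among the red points, 8 are to the right of 0 and 3 (Gas6, Omd and Ibsp) to the left. Ibsp at -3.01 and Phex at 1.32 lie at the ends.

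In all, 12 of the 52 tested genes of these 6 lists, or 23.1%, passed the FDR in edgeR, against 7.56% of all genes, and 9 of the 12 were higher in iSM KO. The median log2 fold change of the 52 genes was 0.083. These lists were chosen with earlier results of these data known, so the difference from the share of all genes is no test of an excess. The count of listed genes past the FDR was 4 without iSM KO replicate 2 and 6 without iSM KO replicate 1. Markers of other cells moved with the groups in part. Of 5 adipocyte markers 3 passed the FDR in edgeR, all lower in iSM KO, and 0 in limma-voom, with sums of 4.90 to 54.3 CPM in controls against 2.24 to 4.76 CPM in iSM KO. Of 6 macrophage markers 0 passed in edgeR, DESeq2 or limma-voom, and 1 had an unadjusted p under 0.05 in edgeR, against 22.1% of all genes. Their sums were 18.4 to 20.5 CPM in controls against 7.12 to 23.1 CPM in iSM KO. The part of these cells in the counts above was not tested.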

How the data were processed

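Aortic RNA of 3 iSM KO and 3 control mice was measured by RNA-seq. Per the study's methods, Illumina DRAGEN mapped and quantified the reads (paired ends) against Ensembl release 101, mm10, and bcl2fastq is also named in the submitters' processing notes. The values deposited by the authors are estimated counts without normalization, of which 10.9% to 12.2% per library are not whole numbers. How reads shared by several genes were assigned, and whether strand was used, is not given in the sources used here. Counts were rounded, and genes were kept that exceeded 10 counts in each library of either group. Library totals were 24911609 to 40460467, and a count of 0 allows up to 3 reads (counting error only). Groups were compared with edgeR 4.0.16 in R 4.3.3 (TMM, glmQLFit, glmQLFTest, all 6 libraries, no covariates) and Benjamini-Hochberg adjustment over 16565 genes. The study's methods used DESeq2. SE is the log2 fold change divided by the root of the F statistic, and 95% intervals use the t distribution with the degrees of freedom of the test. That each mouse gave 1 library is inferred from the study's methods, which name 3 mice per group, and from the numbered labels, which name no mouse.

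Exonic lengths and positions came from GENCODE M21 (GRCm38), and shared sequence was found with blastn 2.17.0 at 95% identity over 100 bp. The fits were tested on 1 simulated dataset with 200 changed genes. Of genes with a true log2 fold change of 1 in either direction, edgeR recovered 67%, DESeq2 70% and limma-voom 66%. At an FDR under 0.05, 7.34% of the calls of edgeR, 20.4% of those of DESeq2 and 5.81% of those of limma-voom were false. Alternatives were DESeq2 1.42.0, limma-voom (limma 3.58.1), DESeq2's size factors, no filter, filterByExpr, the replicate number as a block, and each library left out. Chi-square per degree of freedom between libraries was 10.7 to 70.3, above sampling noise in every pair. It was 10.7 to 17 between iSM KO libraries, 40.7 to 60.7 between controls and 44.6 to 70.3 across the groups. By this measure controls differed among themselves nearly as much as from iSM KO libraries.

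The 9 genes, the 6 lists of other calcification genes and the 10 lists of cell markers were chosen with earlier results of these data known, and support nothing by their choice. Beyond the 9 genes and Prdm16, the rule named listed genes with an FDR under 0.05, the gene of each list with the highest mean CPM in controls, and the 3 genes most alike to 2 of the 9. Other genes were named for their role after their values were seen. Some genes that the rule names are counted but not reported by name or drawn here.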

Additional observations from a re-analysis of the deposited data

How the results depend on the processing

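Tnfrsf11b and Prdm16 kept their direction and an FDR under 0.05 in all 12 alternatives, and in each of them 1 calcification gene passed the FDR and 0 did so with a fold change over 2. Among the genes named above without a call, the log2 fold change turned sign with a library left out for Ggcx, Pth1r, Acta2, Tagln, Smtn and Col2a1, and for Runx2 without control replicate 1 (0.05; range with 1 library left out -0.28 to 0.05), for Mgp without iSM KO replicate 3 (-0.02; range -0.02 to 0.32) and for Tnfrsf1a without control replicate 3 (-0.00 when rounded; range -0.00 to 0.14). Some genes of the lists that are not named above also turned sign. The cause was not tested. The count of other calcification genes past the FDR, 12, was 15 with DESeq2, 12 with limma-voom and 16 without a filter. With 1 library left out it ranged from 4 to 11, the lowest being 4 and 6 without iSM KO replicates 2 and 1. It was 7 with the replicate number as a block, which leaves fewer degrees of freedom. The labels do not say that replicate numbers pair these mice. Deviations of same-numbered libraries correlated at -0.13, -0.05 and -0.11, which cannot exclude a pairing with so few libraries per group. Of the named genes, Axl, Fam20c, Gas6, Hdac5, Slc29a1 and Zbtb16 lost their call under the block, Omd lost it with limma-voom, and the block changed no call among the 9 genes. The difference in the log2 ratio of Alpl to Enpp1 ranged from 0.40 to 0.78 with libraries left out. Over all genes, 1252 passed the FDR, 775 under the block, 624 without iSM KO replicate 1 and 516 without iSM KO replicate 2. Low counts limit Sp7, Msx2, Ibsp and Tnfsf11 most.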

Other observations

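Over the 6 libraries, the genes whose log2 CPM was most like that of Tnfrsf11b included Pcdh18 and Ano3, with Pearson's r of 0.991 and 0.986. Neither passed an FDR of 0.05 in edgeR (FDR = 0.397 and 0.120). The genes most like Mgp were Tmem222, Gm10039 and Smpd1, with r of 0.992, 0.989 and 0.977. These are descriptions over 6 points that share libraries and depth, and values near 1 are common at this size, since 370 genes reached r of 0.9 with Tnfrsf11b and 42 with Mgp.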
